A study of Rattus norvegicus with 9 samples.

Results

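Immediate early genes and heat shock genes are 2 classes of transcripts that answer quickly to handling, and they were examined here in pancreatic islets of rats. The listed classes held 40 genes, 29 immediate early and 11 heat shock genes, chosen by name. Of these, 36 were measured by a probe set of a single gene, among 14217 such genes on the arrays, 28 immediate early genes and 8 heat shock genes. Btg2 was not listed in the platform annotation used here, and Hspa1b, Hspa8 and Hsp90aa1 were listed only with probe sets shared with other genes, so that no value is given for these 4.

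The islets came from Wistar rats, 4 samples of lean animals on standard chow and 5 samples of obese animals on a high-caloric cafeteria diet, a choice of palatable energy-dense foods, for 30 days. All islets were freed with collagenase right after killing, by the same stated protocol in both groups. Total RNA of each sample was hybridised to 1 Affymetrix rat genome array. The sources used here do not give sex, age, the length of the digestion or whether animals were pooled. The p-values therefore reflect only how far these 9 samples scatter, part of which may be technical. The question was whether genes that answer to islet isolation differed between the diets or between single arrays.

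Immediate early genes are transcribed within minutes of a stimulus without any new protein being made. Kinases of the MAPK pathway and calcium or cyclic AMP signals activate factors such as SRF and CREB that already wait at their promoters, and many of the products are themselves transcription factors or brakes on the same kinases. Heat shock genes are switched on by the factor HSF1 when proteins unfold, and their products are chaperones that hold or refold other proteins. Enzymatic isolation of tissue is a known stimulus for both classes, and in beta cells glucose and incretin hormones also induce Fos, Egr1 and Nr4a1.

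Promoter windows show how the classes differ in sequence. RefSeq windows of the GRCr8 assembly, 250 bases before to 50 bases after a start, matched 27 of the 36 measured genes, 19 immediate early and 8 heat shock genes. In 18 of the 27 that start was the 5′ end of the gene in the RefSeq gene table. In the other 9 (Dusp6, Egr2, Fosb, Klf4, Nr4a1, Nr4a2, Zfp36l1, Hspb8 and Hspd1) it lay 102 to 12985 bases inside the gene. Fos, Jun, Ier3, Atf3, Egr3, Myc, Klf2, Nr4a3 and Arc had none. The 6 windows printed here start at the 5′ end of the gene, and they carry the motifs searched or belong to genes that lead the results. Capitals mark matches on either strand to the CArG box bound by SRF, to the cyclic AMP element TGACGTCA, to the EGR motif GCGNGGGCG, to the AP-1 motif TGANTCA and to the heat shock element, and on the printed strand to TATAAA. All are written 5′ to 3′ along the strand of the gene.
Zfp36 (chr1:92799059-92799358, minus strand): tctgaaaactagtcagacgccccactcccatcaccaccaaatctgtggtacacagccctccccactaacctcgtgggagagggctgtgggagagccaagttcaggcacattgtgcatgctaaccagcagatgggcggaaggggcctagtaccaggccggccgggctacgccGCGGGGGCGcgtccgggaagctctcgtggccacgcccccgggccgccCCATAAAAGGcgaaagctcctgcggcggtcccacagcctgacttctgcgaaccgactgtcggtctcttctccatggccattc
Ier2 (chr19:40399123-40399422, plus strand): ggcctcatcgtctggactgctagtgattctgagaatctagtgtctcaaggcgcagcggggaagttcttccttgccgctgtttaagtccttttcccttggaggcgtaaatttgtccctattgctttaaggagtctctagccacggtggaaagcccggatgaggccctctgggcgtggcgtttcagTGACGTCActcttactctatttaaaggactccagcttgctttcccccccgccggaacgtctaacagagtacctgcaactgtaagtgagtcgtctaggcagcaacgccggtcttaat
Junb (chr19:40080876-40081175, plus strand): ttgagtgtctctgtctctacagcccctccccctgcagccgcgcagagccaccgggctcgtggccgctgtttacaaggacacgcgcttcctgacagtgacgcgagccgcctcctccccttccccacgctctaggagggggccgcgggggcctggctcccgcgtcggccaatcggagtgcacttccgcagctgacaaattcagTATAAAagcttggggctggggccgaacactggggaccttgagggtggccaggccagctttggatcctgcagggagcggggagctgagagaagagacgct
Dnajb1 (chr19:41431092-41431391, minus strand): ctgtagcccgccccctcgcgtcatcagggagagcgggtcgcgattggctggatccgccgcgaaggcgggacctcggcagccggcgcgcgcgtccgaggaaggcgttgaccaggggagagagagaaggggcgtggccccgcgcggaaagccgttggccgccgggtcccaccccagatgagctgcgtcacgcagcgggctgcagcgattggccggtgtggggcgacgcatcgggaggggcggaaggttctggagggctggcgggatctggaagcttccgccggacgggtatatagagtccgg
Hsph1 (chr12:10427118-10427417, plus strand): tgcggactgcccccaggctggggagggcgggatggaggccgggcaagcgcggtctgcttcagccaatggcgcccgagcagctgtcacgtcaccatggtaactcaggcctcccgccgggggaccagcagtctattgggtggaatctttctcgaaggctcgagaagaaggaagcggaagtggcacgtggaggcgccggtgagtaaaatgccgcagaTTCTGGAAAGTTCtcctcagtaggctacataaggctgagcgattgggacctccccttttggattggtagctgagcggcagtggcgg
Hspe1 (chr9:64084077-64084376, plus strand): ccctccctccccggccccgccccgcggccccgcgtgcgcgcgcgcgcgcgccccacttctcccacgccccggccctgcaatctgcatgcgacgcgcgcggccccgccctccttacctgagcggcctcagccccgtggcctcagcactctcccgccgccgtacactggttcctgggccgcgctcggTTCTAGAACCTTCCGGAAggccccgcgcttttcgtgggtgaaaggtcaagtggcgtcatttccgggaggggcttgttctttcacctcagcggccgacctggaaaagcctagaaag

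The heat shock element was taken as 3 alternating blocks of GAA and TTC, each 2 bases apart. It was found in the windows of 4 of 8 heat shock genes (Dnaja1, Hsph1, Hspd1 and Hspe1), in 0 of 19 windows of immediate early genes and in 0.798% of all 33469 windows. Over windows at the 5′ end of the gene alone it was found in 3 of 6 heat shock genes and 0 of 12 immediate early genes, since the Hspd1 window starts inside its gene. Hspd1 and Hspe1 lie head to head on chromosome 9, and their windows shared 211 bases. Their matches were the same bases, chr9:64084262-64084279, read from opposite strands. The CArG box was found in 5 of 19 immediate early windows (Zfp36, Dusp5, Klf6, Egr1 and Egr2), in 0 of 8 heat shock windows and in 1.64% of all windows, and at the 5′ end of the gene in 4 of 12. The full cyclic AMP element stood in Dusp1, Jund and Ier2, 3 of 19 immediate early windows against 1.83% of all windows. Its core TGACG, which overlaps the full element, was common everywhere, with 11 of 19 immediate early windows, 5 of 8 heat shock windows and 21.2% of all windows. The EGR motif was found in 5 of 19 and 1 of 8 windows (4.98% of all windows). The AP-1 motif stood in 1 of 19 and 1 of 8 (7.33%), and TATAAA in 3 of 19 and 0 of 8 (8.80%). These matches describe the letters only.

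Pairs of arrays correlated at 0.979 to 0.994 over the probe sets tested. Islet hormone genes were bright on every array, with Ins1 at 13.39 to 13.45, Gcg at 13.44 to 13.77 and Sst at 12.32 to 13.26 on the log2 scale, so the labelled tissue was borne out. Chow replicate 1 stood apart in the genes described here, and differences are given with and without it where it moves them most. All values are log2 expression values as deposited, listed in the order of the replicate numbers, which carry no meaning beyond a name. Differences are cafeteria minus chow on the log2 scale with the moderated standard error (SE) of limma.

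Immediate early genes were lower in cafeteria islets in 25 of 28 measured genes, with a median difference of -0.30, whereas heat shock genes were lower in 4 of 8 with a median of -0.0084. Over all 14217 genes 49.2% were lower and the median difference was 0.0025. No gene of either class passed the test by limma at an adjusted p of 0.05, which called 0% of all genes, and the smallest adjusted p was 0.844. At an unadjusted p under 0.05 by limma there were 4 immediate early genes with lower values (Ier5, Arc, Zfp36 and Junb) and 0 with higher values, beside 3.28% of all genes on the lower and 3.42% on the higher side. Among heat shock genes the count was 0 on either side. Groups that did not overlap, with every cafeteria array below every chow array, were found in 1 immediate early gene, Ier5, against 0.837% of all genes.

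Without chow replicate 1 the immediate early genes were lower in 22 of 28 with a median of -0.14, and all 8 heat shock genes had a higher cafeteria mean, with a median of 0.070. Without chow replicates 1 and 3 the counts were 18 of 28 and 3 of 8, with medians of -0.073 and 0.047. The direction of the heat shock genes is therefore not given. The median SE was 0.21 for immediate early genes and 0.0978 for heat shock genes, against 0.0981 for all probe sets, so the spread of the immediate early genes within groups was large. Markers of some other cell types also differed between the diets. Acinar markers were higher in cafeteria islets in 16 of 17 measured genes (median 0.53), though cafeteria replicate 5 was the lowest array in 13. Lymphoid markers were lower in 16 of 17 (median -0.46), myeloid markers in 13 of 15 (-0.18) and endothelial markers in 10 of 12 (-0.12). Markers of the non-beta islet cells were lower in 10 of 10 (-0.25). Ductal markers were lower in 9 of 13 (-0.22), but in 6 of 13 without chow replicate 1 (0.011). Stellate cell markers were lower in 6 of 15 (0.0080) and beta cell markers in 4 of 7 (-0.0047). None of these genes passed at an adjusted p of 0.05 by limma, and their part in the results was not tested beyond the acinar covariate given further on. In bulk RNA, fewer cells that express a gene and less RNA per cell cannot be told apart.

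**Figure D1:**
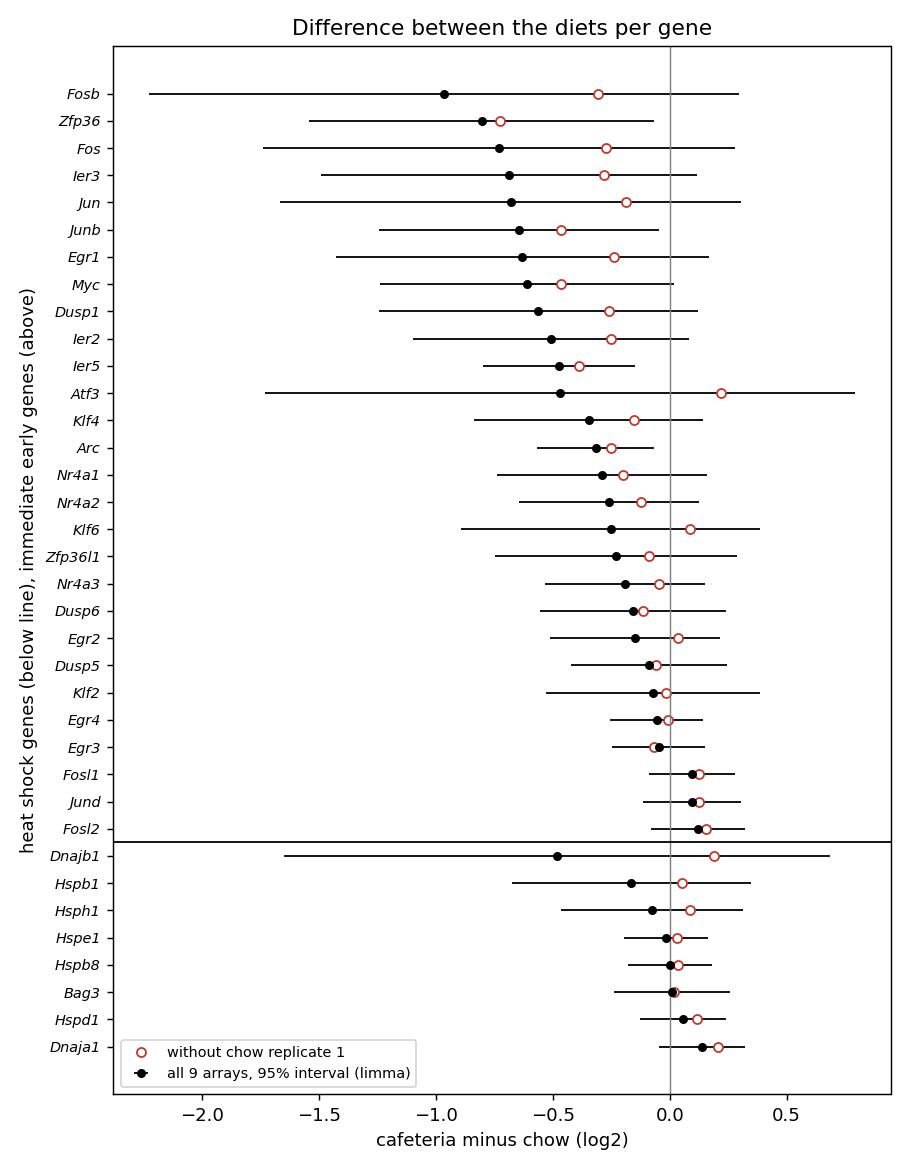
Differences between the diets (horizontal axis, cafeteria minus chow, log2) for 28 immediate early genes above the line and 8 heat shock genes below it; black points with bars are limma estimates with 95% intervals from all 9 arrays, and open red points leave out chow replicate 1. Without that array the estimates of Fosb, Fos, Jun, Egr1 and Ier3 move towards 0, and those of Atf3, Klf6, Egr2, Dnajb1, Hspb1, Hsph1 and Hspe1 cross it.

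The Fos family makes the partners of the AP-1 transcription factor. Fos stood at 12.00, 10.72, 10.34 and 9.44 in the 4 chow arrays and at 9.12, 10.78, 9.87, 9.78 and 9.92 in the 5 cafeteria arrays. The highest array was chow replicate 1, 3.58-fold above the mean of the other 3 chow arrays, and cafeteria replicate 2 exceeded the remaining chow arrays, so the groups overlapped widely. The difference was -0.73 (SE 0.46; limma adjusted p = 0.846), and -0.27 without chow replicate 1. A second, dim Fos probe set had the opposite sign (0.13). Fosb, a close relative, was at 9.83, 7.53, 6.85 and 7.19 in chow and at 5.95, 7.93, 6.68, 7.13 and 6.71 in cafeteria arrays. Its range of 3.87 over the 9 arrays (14.7-fold) ranked 8th of 14217 genes. Its difference was -0.97 (SE 0.57), and -0.31 without chow replicate 1. Fosl1 and Fosl2, which encode the Fra proteins, lay between 4.34 and 4.84 on all arrays, below the median probe set mean of 5.29, and differed by 0.094 and 0.12.

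The Jun proteins pair with Fos. Jun was at 10.82, 9.35, 8.94 and 8.28 in chow and at 8.37, 9.57, 8.28, 8.66 and 8.46 in cafeteria arrays. Its order was that of Fos at the top, with chow replicate 1 first and cafeteria replicate 2 next, and the difference was -0.68 (SE 0.45; -0.19 without chow replicate 1). The other 2 Jun probe sets differed by -0.51 and -0.70. Junb, a Jun protein with weaker activation of growth genes, was at 8.81, 8.34, 8.27 and 7.72 in chow and at 7.72, 8.40, 7.03, 7.69 and 7.36 in cafeteria arrays. Cafeteria replicate 2 lay among the higher chow arrays and cafeteria replicate 1 level with chow replicate 4, and the difference was -0.64 (SE 0.27; limma adjusted p = 0.844; -0.47 without chow replicate 1). Jund, the constitutively expressed member, varied little, from 9.15 to 9.57, and differed by 0.095 (SE 0.094).

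Atf3 encodes a stress-induced repressor of the same bZIP class. It was at 8.51, 6.01, 5.90 and 5.36 in chow and at 5.58, 6.95, 5.62, 5.43 and 6.29 in cafeteria arrays. The first chow replicate was 6.75-fold above the mean of the other chow arrays, and cafeteria replicates 2 and 5 exceeded those 3 arrays. The difference of -0.47 (SE 0.57) turned to 0.22 without chow replicate 1.

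The Egr genes encode zinc finger transcription factors downstream of SRF. Egr1 was at 11.57, 10.15, 10.01 and 9.88 in chow and at 9.21, 10.62, 9.72, 9.53 and 9.78 in cafeteria arrays. The groups overlapped through cafeteria replicate 2 (10.62), and the next cafeteria array, replicate 5 (9.78), lay just below the lowest chow array (9.88). The difference was -0.63 (SE 0.36; limma adjusted p = 0.844; -0.24 without chow replicate 1). Egr2 reached 5.10 in chow replicate 1 and lay between 4.16 and 4.65 elsewhere. Egr3 and Egr4 were dim (3.87 to 4.69) and differed by -0.048 and -0.056 (-0.068 and -0.0082 without chow replicate 1).

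**Figure D2:**
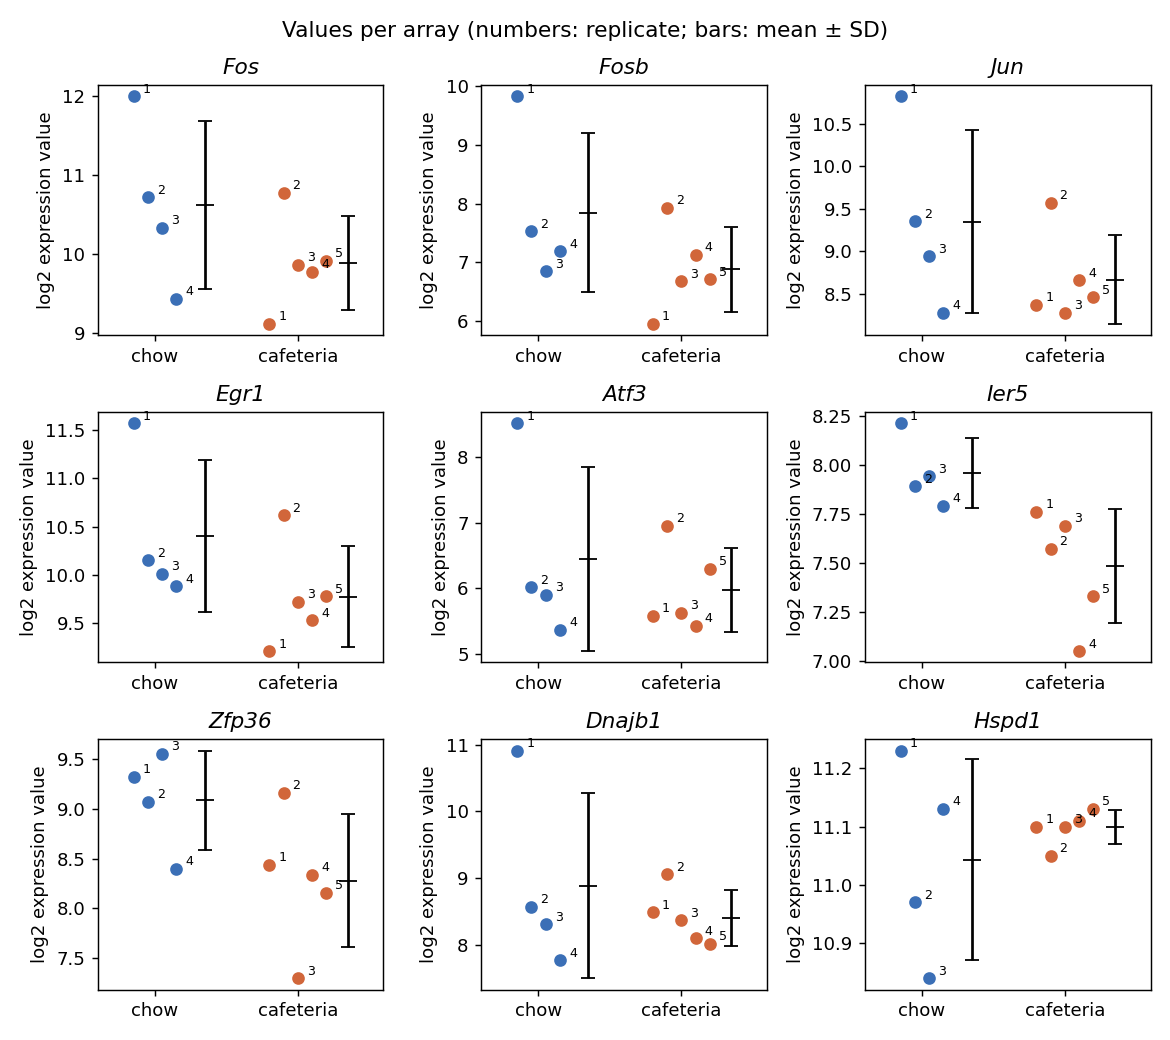
Log2 expression values (vertical axis) of 9 genes in each chow (blue) and cafeteria (orange) array; the number beside a point is the replicate, and the bars give the mean ± SD (n = 4 and 5). Chow replicate 1 is the highest array for Fos (12.00), Fosb, Jun, Egr1, Atf3, Ier5 and Dnajb1, whereas Hspd1 spans only 10.84 to 11.23.

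The Ier genes are named for their early response. Ier5, which encodes a partner of HSF1, was at 8.21, 7.89, 7.94 and 7.79 in chow and at 7.76, 7.57, 7.69, 7.05 and 7.33 in cafeteria arrays. The groups did not overlap, though chow replicate 4 and cafeteria replicate 1 were nearly equal. Ier5 had the smallest unadjusted p of the 36 genes (0.0086 by limma; adjusted p = 0.844), with a difference of -0.47 (SE 0.15; -0.39 without chow replicate 1). The dimmest of 3 Ier5 probe sets had the opposite sign (0.054). Ier2 was at 9.05, 8.20, 8.33 and 7.56 in chow and at 7.56, 8.35, 7.71, 7.48 and 7.79 in cafeteria arrays, a difference of -0.51 (SE 0.27; -0.25 without chow replicate 1). Ier3, a modulator of cell survival, was at 8.09, 6.69, 6.67 and 6.02 in chow and at 5.70, 6.87, 6.03, 6.19 and 6.10 in cafeteria arrays. It differed by -0.69 (SE 0.36; -0.28 without chow replicate 1), and its groups overlapped through cafeteria replicate 2 and chow replicate 4.

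Zfp36 encodes tristetraprolin, which marks cytokine and early gene transcripts for decay. It was at 9.32, 9.07, 9.55 and 8.40 in chow and at 8.44, 9.16, 7.30, 8.34 and 8.16 in cafeteria arrays. Chow replicates 1, 2 and 3 and cafeteria replicate 2 formed the upper values, and the difference was -0.80 (SE 0.33; 95% interval -1.54 to -0.067; limma adjusted p = 0.844). It was -0.73 without chow replicate 1. Its relative Zfp36l1 differed by -0.23 (SE 0.23), by -0.091 without chow replicate 1 and by -0.052 without cafeteria replicate 1. Myc, a growth regulator and early gene, was at 5.32, 4.18, 5.72 and 4.29 in chow and at 4.10, 4.45, 4.33, 4.31 and 4.15 in cafeteria arrays. Only chow replicates 1 and 3 lay above 4.45, and without these 2 arrays the difference of -0.61 (SE 0.28) became 0.0306. Arc, best known as a synaptic early gene, was at 5.81, 5.76, 5.43 and 5.45 in chow and at 5.25, 5.48, 5.22, 5.45 and 5.09 in cafeteria arrays, a difference of -0.32 (SE 0.11; limma adjusted p = 0.844) with cafeteria replicates 2 and 4 level with the lower chow arrays.

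Dusp genes encode phosphatases that switch MAP kinases off. Dusp1 was at 10.51, 9.42, 9.46 and 9.06 in chow and at 8.67, 9.84, 8.59, 9.06 and 9.11 in cafeteria arrays. Chow replicate 1 and then cafeteria replicate 2 were again the highest, and the difference was -0.56 (SE 0.31; -0.26 without chow replicate 1). Dusp5 and Dusp6, which act on ERK, varied less by their brightest probe sets, with ranges of 0.72 and 0.96. They differed by -0.087 and -0.16 (-0.058 and -0.11 without chow replicate 1). The 2 other Dusp6 probe sets had ranges of 1.68 and 1.13 and differed by -0.025 and 0.066. Among the Krüppel-like factors, Klf4 differed by -0.35 (SE 0.22; -0.15 without chow replicate 1), Klf6 by -0.25 (SE 0.29; 0.088 without it) and Klf2 by -0.072 (SE 0.21; -0.015 without it), where 3 of 4 other Klf2 probe sets had the opposite sign. The orphan nuclear receptors Nr4a1, Nr4a2 and Nr4a3 differed by -0.29, -0.26 and -0.19, and by -0.20, -0.12 and -0.046 without chow replicate 1. For Nr4a2 and Nr4a3, 1 other probe set each had the opposite sign.

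**Figure D3:**
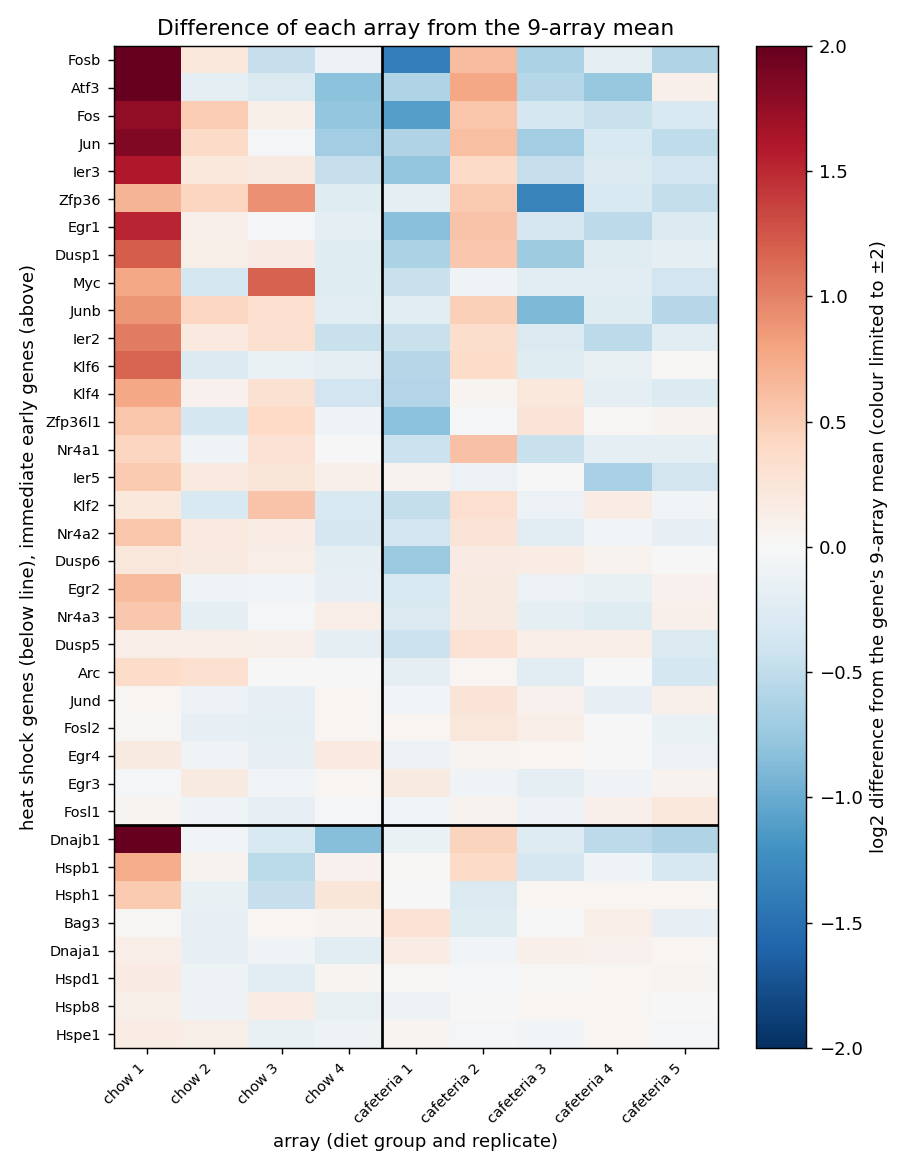
Log2 difference of each array (columns) from the 9-array mean of each gene (rows), immediate early genes above the horizontal line and heat shock genes below, each sorted by spread; red is above and blue below the mean, with colour limited to ±2. Chow replicate 1 is red in most immediate early genes and in Dnajb1, Hspb1 and Hsph1, cafeteria replicate 2 is red in most immediate early genes, and cafeteria replicate 1 is blue in them.

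The heat shock class split by gene rather than by diet. Dnajb1 encodes the inducible co-chaperone HSP40 that hands clients to HSP70. It was at 10.91, 8.57, 8.31 and 7.77 in chow and at 8.49, 9.06, 8.37, 8.10 and 8.02 in cafeteria arrays. In chow replicate 1 it was 6.46-fold above the mean of the other chow arrays, while the remaining 8 arrays mixed the groups. The difference of -0.48 (SE 0.53) turned to 0.19 without that array, and a second Dnajb1 probe set differed by -0.72 (SE 0.50). No exact heat shock element was found in the Dnajb1 window printed above. Hspb1, the small heat shock protein HSP27, was at 9.50, 8.83, 8.21 and 8.84 in chow and at 8.77, 9.13, 8.41, 8.66 and 8.43 in cafeteria arrays, a difference of -0.16 (SE 0.23; 0.054 without chow replicate 1). Hsph1, the HSP110 exchange factor of HSP70, was at 10.69, 10.02, 9.70 and 10.41 in chow and at 10.15, 9.88, 10.21, 10.20 and 10.21 in cafeteria arrays. It differed by -0.077 (SE 0.18; 0.086 without chow replicate 1), and chow replicate 1 was the highest array here too. A second, dimmer Hsph1 probe set had a range of 2.18 and differed by -0.42 (SE 0.34). Its highest array was chow replicate 4.

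The remaining heat shock genes varied little between arrays. Hspd1 and Hspe1 encode the HSP60 and HSP10 subunits of the mitochondrial chaperonin, so they are not cytosolic like the rest of the class. Hspd1 was at 11.23, 10.97, 10.84 and 11.13 in chow and at 11.10, 11.05, 11.10, 11.11 and 11.13 in cafeteria arrays, a difference of 0.056 (SE 0.084; 95% interval -0.13 to 0.24; 0.12 without chow replicate 1). Hspe1 spanned 0.30 log2 and differed by -0.017 (SE 0.081; 0.032 without that array). Dnaja1, an HSP40 of the housekeeping kind, was at 10.63, 10.34, 10.43 and 10.29 in chow and at 10.64, 10.44, 10.60, 10.58 and 10.54 in cafeteria arrays. Its 4 lower values included 3 chow arrays, and the difference was 0.14 (SE 0.084; limma adjusted p = 0.846; 0.21 without chow replicate 1). Bag3, a co-chaperone of selective autophagy, differed by 0.010 (SE 0.11). Hspb8, a partner of Bag3, was dim, at 4.20 to 4.50.

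The stress-inducible HSP70 gene Hspa1a lies outside the class as listed and was singled out after its values were seen. Its single probe set was at 12.28, 10.87, 10.13 and 8.88 in chow and at 8.63, 11.32, 9.15, 9.28 and 8.38 in cafeteria arrays. The range of 3.90 (14.9-fold) ranked 6th of 14217 genes. The order was chow replicate 1, cafeteria replicate 2 and chow replicate 2, and the difference was -1.19 (SE 0.70; limma adjusted p = 0.845; -0.61 without chow replicate 1). Hspa1b, a near-identical neighbour, may share these probes.

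Immediate early genes spread widely between arrays. Heat shock genes other than Dnajb1, Hspb1 and Hsph1 had ranges from 0.29 (Hspb8) to 0.53 (Bag3). Of these only Bag3 was above the median range of all genes (0.46). The range over the 9 arrays exceeded 1 log2 unit in 17 of 28 immediate early genes and in 2 of 8 heat shock genes, against 7.22% of all genes. The median range was 1.25 for immediate early and 0.46 for heat shock genes, and 0.46 for all genes. Chow replicate 1 was the highest of the 9 arrays in 18 of 28 immediate early genes and 5 of 8 heat shock genes, against 14.2% of all genes. Within the cafeteria group, replicate 2 was the highest array in 23 of 28 immediate early genes but in 2 of 8 heat shock genes, against 18.1% of all genes. Replicate 1 was the lowest cafeteria array in 15 of 28 immediate early genes and 1 of 8 heat shock genes, against 22.9% of all genes. Cafeteria replicate 2 exceeded 2 or more chow arrays in 25 of 28 immediate early genes and 6 of 8 heat shock genes, against 60.1% of all genes.

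The mean difference from the 9-array mean over the immediate early genes was 0.81, 0.057, 0.13 and -0.21 in the chow arrays and -0.44, 0.29, -0.26, -0.19 and -0.18 in the cafeteria arrays. The same mean over the heat shock genes was 0.52, -0.066, -0.20 and -0.10 in chow and 0.036, 0.024, -0.054, -0.030 and -0.12 in cafeteria arrays. By these means chow replicate 1 was high in both classes. Cafeteria replicate 2 was high in the immediate early genes and near 0 in the heat shock genes. The heat shock mean pools unlike genes. Cafeteria replicate 2 was the highest cafeteria array in 2 of 8, Dnajb1 (9.06) and Hspb1 (9.13), and the lowest in 4 of 8. Dnajb1 in chow replicate 1 was 2.69 above the mean of the other chow arrays, against a median of 0.26 over the 8 genes.

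Chow replicate 1 also had the highest ductal markers, with a mean difference of 0.69, against -0.32 to 0.26 in the other chow and -0.16 to -0.030 in the cafeteria arrays. It was the highest array in 8 of 13 measured ductal markers. Their mean log2 level was 6.43 to 7.45 in chow and 6.60 to 6.73 in cafeteria arrays. Krt19, a keratin of duct cells chosen after its values were seen, was at 8.83 in this array and at 3.90 to 6.84 in the other chow and 4.69 to 6.02 in the cafeteria arrays. The 3-prime minus 5-prime difference of the actin and Gapdh control probe sets, a sign of RNA quality, was 1.42 to 1.80 in chow and 1.21 to 1.74 in cafeteria arrays. Chow replicate 1 was at the upper and cafeteria replicate 1 at the lower end. Cafeteria replicates 3 (1.74) and 5 (1.73) came close to chow replicate 1, with immediate early means of -0.26 and -0.18. With the RNA quality measure as a covariate the immediate early median was -0.27, and with the acinar markers as a covariate it was -0.38. Chow replicate 3 carried the highest lymphoid markers, with a mean difference of 1.16 against at most 0.076 elsewhere, and was the highest array for Zfp36, Myc and Klf2. The part of ductal, non-beta islet or lymphoid cells in these results was not tested.

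**Figure D4:**
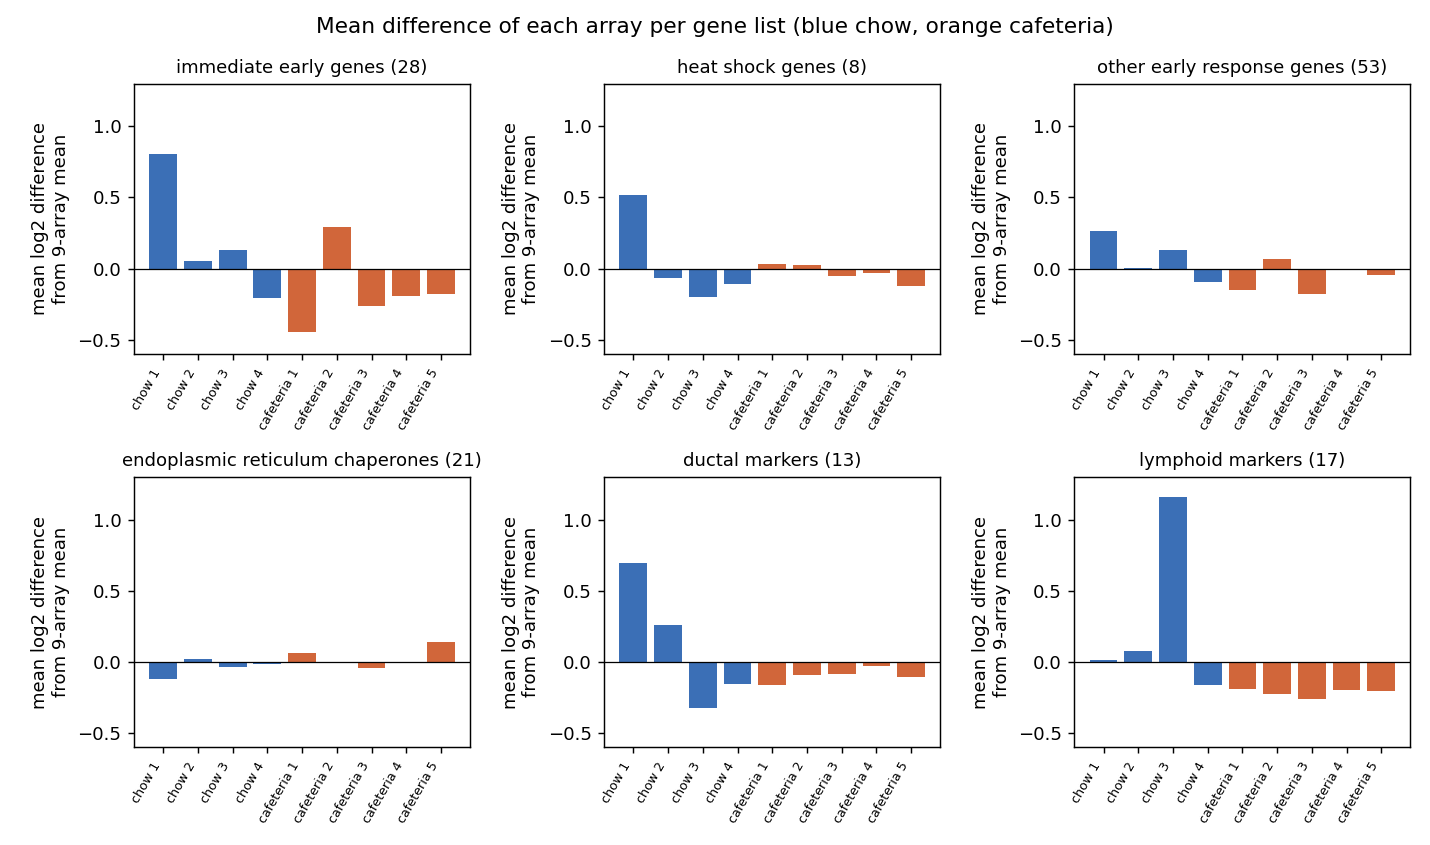
Mean log2 difference from the 9-array mean (vertical axis) in each array for 6 gene lists, chow in blue and cafeteria in orange. Chow replicate 1 leads in immediate early genes (0.81), heat shock genes (0.52), other early response genes (0.27) and ductal markers (0.69), and chow replicate 3 in lymphoid markers (1.16).

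Fos was set against every other gene over the 9 arrays, after the spread had been seen, with p-values adjusted over all 14216 relations. No relation passed at an adjusted p of 0.05 by r or by rho under exact permutation (0% of genes), and the smallest adjusted p of r was 0.392. At an unadjusted exact permutation p under 0.05 with a positive sign, 15 of 27 immediate early genes were counted by Pearson's r against 3.23% of all genes, 13 by Spearman's rho against 1.66%, and 11 by both against 1.20%. Without chow replicate 1 and cafeteria replicate 2, the arrays farthest from the median of Fos, r stayed over 0.8 in 6 of 27 (Jun, Egr1, Ier2, Ier3, Dusp6 and Nr4a2) against 0.774% of all genes.

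The closest members were Ier3 (r = 0.979, exact permutation p = 5.51e-05, adjusted 0.392; rho = 0.950, p = 3.53e-04, adjusted 1) and Nr4a2 (r = 0.970, exact permutation p = 2.76e-05, adjusted 0.392; rho = 0.950, p = 3.53e-04, adjusted 1). Without the 2 farthest arrays r was 0.942 for Ier3 and 0.944 for Nr4a2. Egr1 had r = 0.953 (exact permutation p = 1.98e-04, adjusted 0.431; rho = 0.900, p = 0.00203, adjusted 1) and 0.838 without them. For other members the relation was weaker without these arrays. For Atf3, r = 0.902 (exact permutation p = 0.00202, adjusted 0.629; rho = 0.900, p = 0.00203, adjusted 1) became 0.594. For Klf6, r = 0.876 (exact permutation p = 0.00426, adjusted 0.771; rho = 0.683, p = 0.0503, adjusted 1) became 0.429. For Junb, r = 0.786 (exact permutation p = 0.0105, adjusted 0.833; rho = 0.683, p = 0.0503, adjusted 1) became 0.523.

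Among the 8 heat shock genes, 1 had an unadjusted exact permutation p under 0.05 with positive r and 0 with positive rho. Dnajb1 had r = 0.863 (exact permutation p = 0.00610, adjusted 0.771; rho = 0.667, p = 0.0589, adjusted 1), and r was 0.362 without the 2 farthest arrays, so its relation rests on them. Hspd1 had r = 0.0864 (exact permutation p = 0.811, adjusted 0.999; rho = -0.167, p = 0.678, adjusted 1) and -0.688 without them. Bag3 had the lowest r of the class, -0.487 (exact permutation p = 0.184, adjusted 0.999; rho = -0.733, p = 0.0311, adjusted 1), and -0.767 without them. Hspa1a had r = 0.936 (exact permutation p = 2.73e-04, adjusted 0.431; rho = 0.817, p = 0.0108, adjusted 1) and 0.840 without them. The groups are too small for such a relation within each diet.

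**Figure D5:**
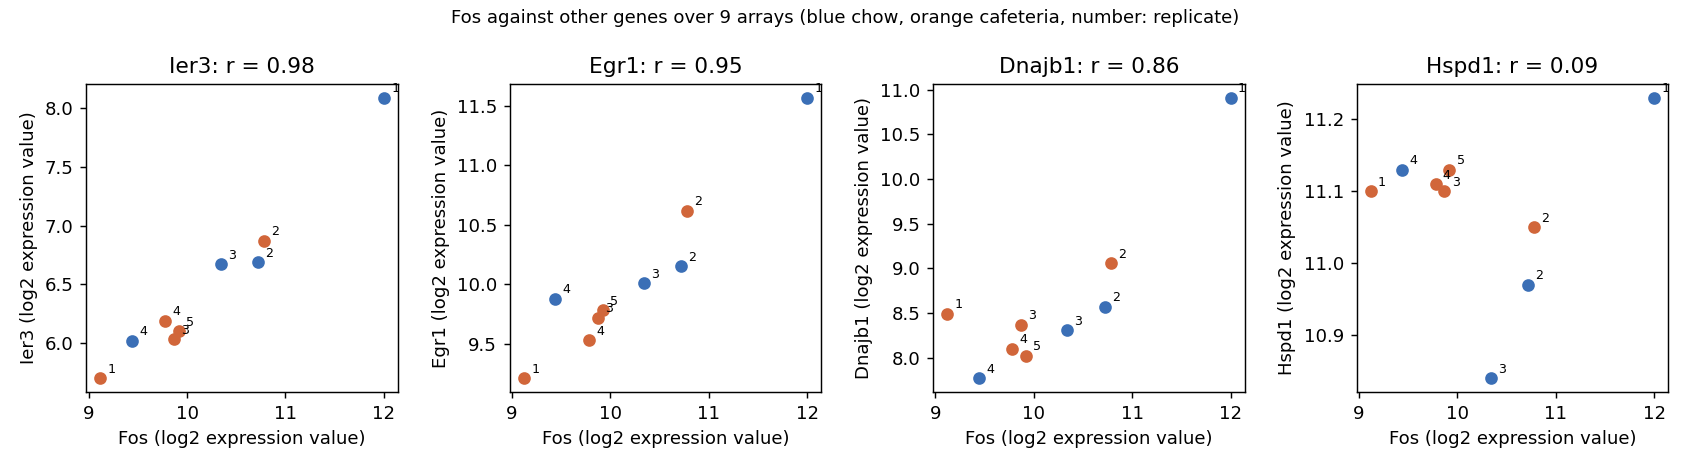
Log2 values of Ier3, Egr1, Dnajb1 and Hspd1 (vertical axes) against Fos (horizontal axes) in the 9 arrays, chow in blue and cafeteria in orange with the replicate number beside each point. Ier3 and Egr1 are ordered much like Fos, and Hspd1 shows no such order. Dnajb1 shares with Fos the 2 highest arrays, chow replicate 1 and cafeteria replicate 2, but not the lowest array.

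Other early response genes, a list of 59 drawn from general knowledge, were measured in 53 genes, of which 37 were lower and 16 higher in cafeteria islets, with a median of -0.10 (-0.016 without chow replicate 1). None passed at an adjusted p of 0.05 by limma, while 8 with lower and 2 with higher values had an unadjusted p under 0.05, against 3.28% and 3.42% of all genes. Crem, which encodes cyclic AMP-responsive activators and repressors, ran against the list. It was at 6.30, 6.58, 6.62 and 6.62 in chow and at 6.76, 6.97, 7.04, 7.50 and 6.96 in cafeteria arrays. Every cafeteria array lay above every chow array, as in 1.33% of all genes, and chow replicate 1 was the lowest of all, with a difference of 0.52 (SE 0.14; limma adjusted p = 0.844; 0.44 without chow replicate 1). Irf1, an interferon regulatory factor, differed by -0.38 (SE 0.13), and Vgf, a neuroendocrine secretory peptide gene, by -0.23 (SE 0.082). Chow replicate 1 was the highest array in 23 of the 53 genes.

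The kinases and factors upstream of the early genes were measured in 25 of 36 listed genes, 15 lower and 10 higher, with a median of -0.062 (-0.14 without chow replicate 1), and 0 had an unadjusted p under 0.05 by limma. Map3k1 (-0.32, SE 0.15), Map2k6 (-0.20, SE 0.099) and Map2k3 (0.32, SE 0.16), all kinases above JNK or p38, had the smallest p. In 1 of these 25 genes chow replicate 1 was the highest array.

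Other chaperones of the cytosol and mitochondria were measured in 47 of 49 listed genes, 27 lower and 20 higher, with a median of -0.022 (0.0036 without chow replicate 1). Hsf1, the heat shock factor itself, differed by -0.31 (SE 0.12) and the small heat shock gene Hspb6 by 0.25 (SE 0.097), each at an unadjusted p of 0.0252 by limma. Hsp90ab1, the constitutive HSP90, differed by -0.23 (SE 0.11), and another of its probe sets had the opposite sign. Chaperones of the endoplasmic reticulum, which answer to the unfolded protein response, were higher in 15 of 21 measured genes, with a median of 0.072 (0.023 without chow replicate 1). Dnajb11 (0.52, SE 0.17), Creld2 (0.46, SE 0.17) and Hspa13 (0.25, SE 0.11) had the smallest p, and the smallest adjusted p by limma in either list was 0.844. Chow replicate 1 was the highest array in 11 of 47 and 2 of 21 genes of these lists.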

How the data were processed

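Islet RNA of 9 samples was measured on Affymetrix arrays, 1 array each. The authors deposited a log2 value for each probe set. Among tools, the submitters' processing notes list affy 2.0.1, R 2.7.0 and RMA, with no role stated. RMA equalises the array distributions, which removes shifts shared by most genes, compresses dim probe sets and gives no detection call. The column medians were 5.28 to 5.32. Of 31099 probe sets, 57 controls were left out and 31042 tested; 20826 named a single gene (14217 genes) by the platform annotation, 20758 of them matched RefSeq gene identifiers, and 0 symbols changed. Each gene was represented by its brightest probe set (highest 9-array mean).

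Groups follow the diet labels. The test was limma 3.58.1 (R 4.3.3), lmFit and eBayes, two-sided, without covariates, Benjamini-Hochberg adjusted over all tested probe sets. Relations with Fos used exact permutation over 362880 orders, two-sided, adjusted over 14216 genes (Python 3.11.15, numpy 2.4.6, pandas 2.3.3; figures by matplotlib 3.10.9). On simulated data of 31042 probe sets with 200 changed, limma recovered 40 of 67 at 1.5-fold, 62 of 67 at 2-fold and 61 of 66 at 3-fold, with 4 false of 167 calls. The changed probe sets were picked at random and the noise was independent between probe sets. This recovery does not carry over to the immediate early genes, whose median SE was 0.21 against 0.0981 for all probe sets.

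The members and lists were chosen with earlier results of these data known, so lists are described by counts and medians without a test. By rule, values of every array are given for Fos, Jun, Egr1, Atf3, Hspd1 and the 10 immediate early and 5 heat shock genes with the smallest unadjusted p, and the 3 genes with the smallest p of each other pathway list are named. Hspa1a, Krt19, Nfkbiz and Gadd45g were added after their values were seen. Alternatives were median centring, repeated quantile normalization, brighter probe sets only, a variance trend, array weights, RNA quality or acinar markers as covariate, the mean of a gene's probe sets, an adjusted p of 0.10, and left-out samples.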

Additional observations from a re-analysis of the deposited data

Results flagged for a closer look

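In 9 of 76 sets of values (each gene and each class mean, in each diet group), the highest or lowest array stood away from the rest of its group: its gap to the nearest array, as a share of the group's whole range, was above the Dixon limit at 95%. Chance alone gives about 1 in 20 such sets. The sets share arrays and are not independent, so their count is not read as an excess. In 3 of the 9 the array was chow replicate 1 on the high side: Egr1 (share 0.836, value 11.57), Egr2 (0.867, value 5.10) and Klf6 (0.893, value 9.60).

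Cafeteria replicate 1 stood low in Zfp36l1 (0.732, value 7.97), Dusp6 (0.827, value 7.57) and Hspb8 (0.730, value 4.25). Cafeteria replicate 2 stood high in Nr4a1 (0.741, value 9.36) and low in Hsph1 (0.808, value 9.88). Chow replicate 4 stood low in Dusp5 (0.896, value 6.72). Fosb, Atf3 and Dnajb1, highest in chow replicate 1, did not pass this limit.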

How the results depend on the processing

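The count of genes called was 0 at an adjusted p of 0.05 under every alternative run and 0 at 0.10, so no call could be lost. Immediate early genes stayed lower on balance in all 18 alternatives, with 18 to 25 of 28 genes lower (20 of 21 among the brighter ones); with single samples left out the counts were 22 to 25 and the medians -0.39 to -0.14. Heat shock genes had 0 to 6 of 8 lower with single samples left out, 0 without chow replicate 1, and medians of -0.047 to 0.070; median centring gave 0.00065. Among the 36 genes, 20 kept their sign in every alternative, 19 immediate early genes and Dnaja1.
Without chow replicates 1 and 3, Egr2 (0.0581), Atf3 (0.29), Myc (0.0306), Zfp36l1 (0.12), Klf2 (0.28), Klf4 (0.00092), Klf6 (0.13) and Dnajb1 (0.24) changed sign. With array weights Klf2 (0.0174) and Hspe1 (0.0229) did. Bag3 was -0.0141 with RNA quality and -0.0419 with acinar markers as covariate, and Hspb8 was -0.0156 after repeated quantile normalization, -0.0072 with acinar markers and -0.0330 as the mean of its probe sets. With single samples left out, sign changes gave ranges of -0.23 to 0.034 (Egr2), -0.83 to 0.22 (Atf3), -0.17 to 0.0122 (Dusp5), -0.25 to 0.0100 (Dusp6), -0.19 to 0.10 (Klf2), -0.39 to 0.0883 (Klf6), -0.38 to 0.0544 (Hspb1), -0.050 to 0.047 (Hspb8), -0.25 to 0.0857 (Hsph1), -0.0120 to 0.12 (Hspd1), -0.068 to 0.032 (Hspe1), -0.86 to 0.19 (Dnajb1), -0.060 to 0.073 (Bag3) and -0.48 to 0.0142 (Gadd45g). The cause was not tested. No paired analysis was possible because the labels give the samples different letters and no shared number. The number of arrays limits the precision, and dim genes (Fosl1, Fosl2, Egr2, Egr3, Egr4, Nr4a3, Myc, Hspb8) have compressed differences.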

Other observations

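Early response genes outside the listed classes included some with the same 2 highest arrays as Fos, chosen after their values were seen. Nfkbiz, which encodes a nuclear IkB protein induced by NF-kB, was at 7.74, 5.68, 6.24 and 5.70 in chow and at 5.20, 6.48, 5.40, 5.62 and 5.68 in cafeteria arrays. Chow replicate 1 and cafeteria replicate 2 were its highest arrays, and the difference was -0.66 (SE 0.40; -0.20 without chow replicate 1), with another probe set at 0.0340. Gadd45g, a stress gene that activates p38 and JNK signalling, was at 9.64, 8.59, 8.51 and 8.73 in chow and at 8.55, 9.55, 8.18, 8.50 and 8.33 in cafeteria arrays. The same 2 arrays were high by about the same amount, and the difference was -0.24 (SE 0.30; 0.014 without chow replicate 1).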
